A study of Mus musculus with 6 samples.

Results

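The genes described here encode mitochondrial ribosomal proteins, named Mrpl after the large subunit and Mrps after the small subunit, with exceptions given below. They were found by symbol, from probe sets with exactly 1 gene symbol, and each gene was read from its probe set with the highest mean over the 6 samples. This gave 74 of the 12393 genes on the array, 47 Mrpl and 27 Mrps. The symbols Mrpl30 and Mrpl53 occurred only on probe sets with several symbols, so those genes are not among the 74. Mrps36 matches the naming rule, although its protein is now known as a subunit of the oxoglutarate dehydrogenase complex.

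Mitochondria carry their own ribosomes, which translate the few mRNAs of the mitochondrial genome, all encoding membrane subunits of the respiratory chain and ATP synthase. The ribosomal RNAs come from mitochondrial DNA, but every mitochondrial ribosomal protein is encoded in the nucleus, made in the cytosol and imported. Part of these proteins have bacterial counterparts and the others were added to the ribosome during mitochondrial evolution. T cells enlarge their mitochondrial translation machinery when they are activated and divide, and regulatory T cells rely strongly on respiration.

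Total RNA was measured on 1 Affymetrix Mouse430a array per sample, and all values are log2 expression after robust multiarray average (RMA) normalisation. The series asked how gene expression in mouse regulatory T cells differs when the histone deacetylase Hdac3 is deleted. All 6 samples were labelled CD4+CD25+ regulatory T cells on a C57BL6 background. There were 3 wild type samples and 3 samples of genotype HDAC3-fl/fl_FOXP3cre, called Hdac3 deleted here, in which a Cre recombinase named for the regulatory T cell gene Foxp3 acts on floxed Hdac3. For the latter samples, the source field names HDAC11 and the description field HDACII, while title and genotype name HDAC3. Age, sex, and whether samples came from separate animals were not given, so the p-values speak only to the spread among these 6 samples, and that spread may be technical. A difference below is Hdac3 deleted minus wild type on the log2 scale. "Rose" and "fell" mean an adjusted p under 0.05 by limma, with Benjamini-Hochberg adjustment over all 12393 genes.

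Arrays of one group correlated at 0.996 to 0.998 over probe sets, and arrays of different groups at 0.921 to 0.923. Hdac3 itself was lower but still well measured, with 9.04 ± 0.028 on the wild type arrays against 8.49 ± 0.024 after deletion (SD, n = 3 each), a difference of -0.55 (limma adjusted p = 7.45e-05). Foxp3 was not above background on either side, with means of 3.77 and 3.68, where background spans the 2.37 to 5.16 of 27 bacterial control probe sets. Of 8 T cell markers measured, 6 fell, including Cd3d, Cd3e, Cd3g, Cd247 and Cd4, while Il2ra, which encodes CD25, rose by 0.71. The mean level of the T cell list ranged from 10.45 to 10.49 on the wild type arrays and from 9.52 to 9.54 on the Hdac3 deleted ones. All 12 macrophage markers and all 8 neutrophil markers rose. The mean level of the macrophage list lay between 4.93 and 5.05 in wild type samples and between 11.90 and 11.99 in Hdac3 deleted samples. That of the neutrophil list lay between 4.72 and 5.11 against 11.34. Above background on the wild type arrays were 5 of the 12 macrophage and 3 of the 8 neutrophil genes. All 5 proliferation markers rose as well, and their list mean lay between 7.07 and 7.09 against 9.21 to 9.24. These shifts run with genotype in all 6 samples, and their part in the results below was not tested. In RNA from a cell population, fewer cells of a type and less RNA per cell cannot be told apart.

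RefSeq promoters of GRCm38.p6, 250 bases before to 50 after the start, were on hand for 65 of the 74 genes. They were searched on both strands for the cores that nuclear regulators of mitochondrial genes are known to bind. Each core was searched as exact letters, so other forms of a binding site were not counted. The 150 bases before the start are shown for 4 genes that the results turn on, on the coding strand, with capitals marking every motif found. Mrps6 and Mrpl52 are among the largest falls, Mrpl9 carries an NRF1-type core and Mrpl45 had the largest rise. Mrps6 (chr16:92058186-92058335) holds 4 GC boxes, overlapping ones included. Mrpl52 (chr14:54426759-54426908) holds an ETS-type core read on the other strand, and Mrpl9 (chr3:94443186-94443335) the NRF1-type core. Mrpl45 (chr11:97315566-97315715) holds no exact match to the letters searched, and variants of the cores were not looked for. The last sequence is the whole 41 bases between the starts of Mrpl46 and Mrps11 (chr7:78783090-78783130), which are transcribed away from each other, shown on the Mrps11 strand.
Mrps6: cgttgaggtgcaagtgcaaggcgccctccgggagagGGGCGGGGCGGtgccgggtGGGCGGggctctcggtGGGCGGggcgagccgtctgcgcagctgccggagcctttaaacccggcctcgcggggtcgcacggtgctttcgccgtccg
Mrpl52: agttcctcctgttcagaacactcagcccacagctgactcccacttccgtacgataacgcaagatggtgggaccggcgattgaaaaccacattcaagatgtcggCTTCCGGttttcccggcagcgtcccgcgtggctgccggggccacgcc
Mrpl9: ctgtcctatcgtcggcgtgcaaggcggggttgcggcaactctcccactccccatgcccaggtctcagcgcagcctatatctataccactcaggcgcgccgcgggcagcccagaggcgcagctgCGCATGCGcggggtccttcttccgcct
Mrpl45: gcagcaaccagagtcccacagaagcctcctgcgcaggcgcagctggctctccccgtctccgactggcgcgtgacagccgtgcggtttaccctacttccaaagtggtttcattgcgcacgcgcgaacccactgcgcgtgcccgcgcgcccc
Mrpl46 and Mrps11: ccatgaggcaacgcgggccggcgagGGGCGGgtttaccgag

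Most mitochondrial ribosomal protein genes were lower in the Hdac3 deleted samples, each by a small step. Of the 74 genes, 58 fell, 3 rose and 13 were not called. Among all 12393 genes, 38.8% fell and 22.4% rose, so 78.4% of these genes fell against that background and 4.05% rose. The median difference of the 74 genes was -0.43, beside -0.17 for all genes. The groups did not overlap for 59 of the 74 genes in the lower direction (43.1% of all genes) and for 6 in the higher direction (24.3% of all genes). Of the 58 falls, 1 was by 1 log2 unit or more, 26 lay between 0.5 and 1, 23 between 0.25 and 0.5, and 8 were smaller. Only Mrps6 was at least 2-fold lower with an adjusted p under 0.05, as 4.46% of all genes were, and no member was at least 2-fold higher, as 9.04% of all genes were. Without wild type replicate 3 there were 2 such genes, Mrps6 and Mrpl52.

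The shift was seen in all samples of the group. Averaged over the 74 genes, the level was 9.336, 9.336 and 9.339 on the wild type arrays and 8.929, 8.941 and 8.925 after Hdac3 deletion, so the groups did not overlap. All 74 genes lay above the background range in every sample, the lowest value being 7.24, and the largest SD within a group was 0.165, for Mrps9. Since they are well expressed genes, the 4931 genes within their range of mean level (7.57 to 11.3) are a nearer background, chosen after the values were seen. Of those, 49% fell and 29% rose, with a median difference of -0.16.

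**Figure D1:**
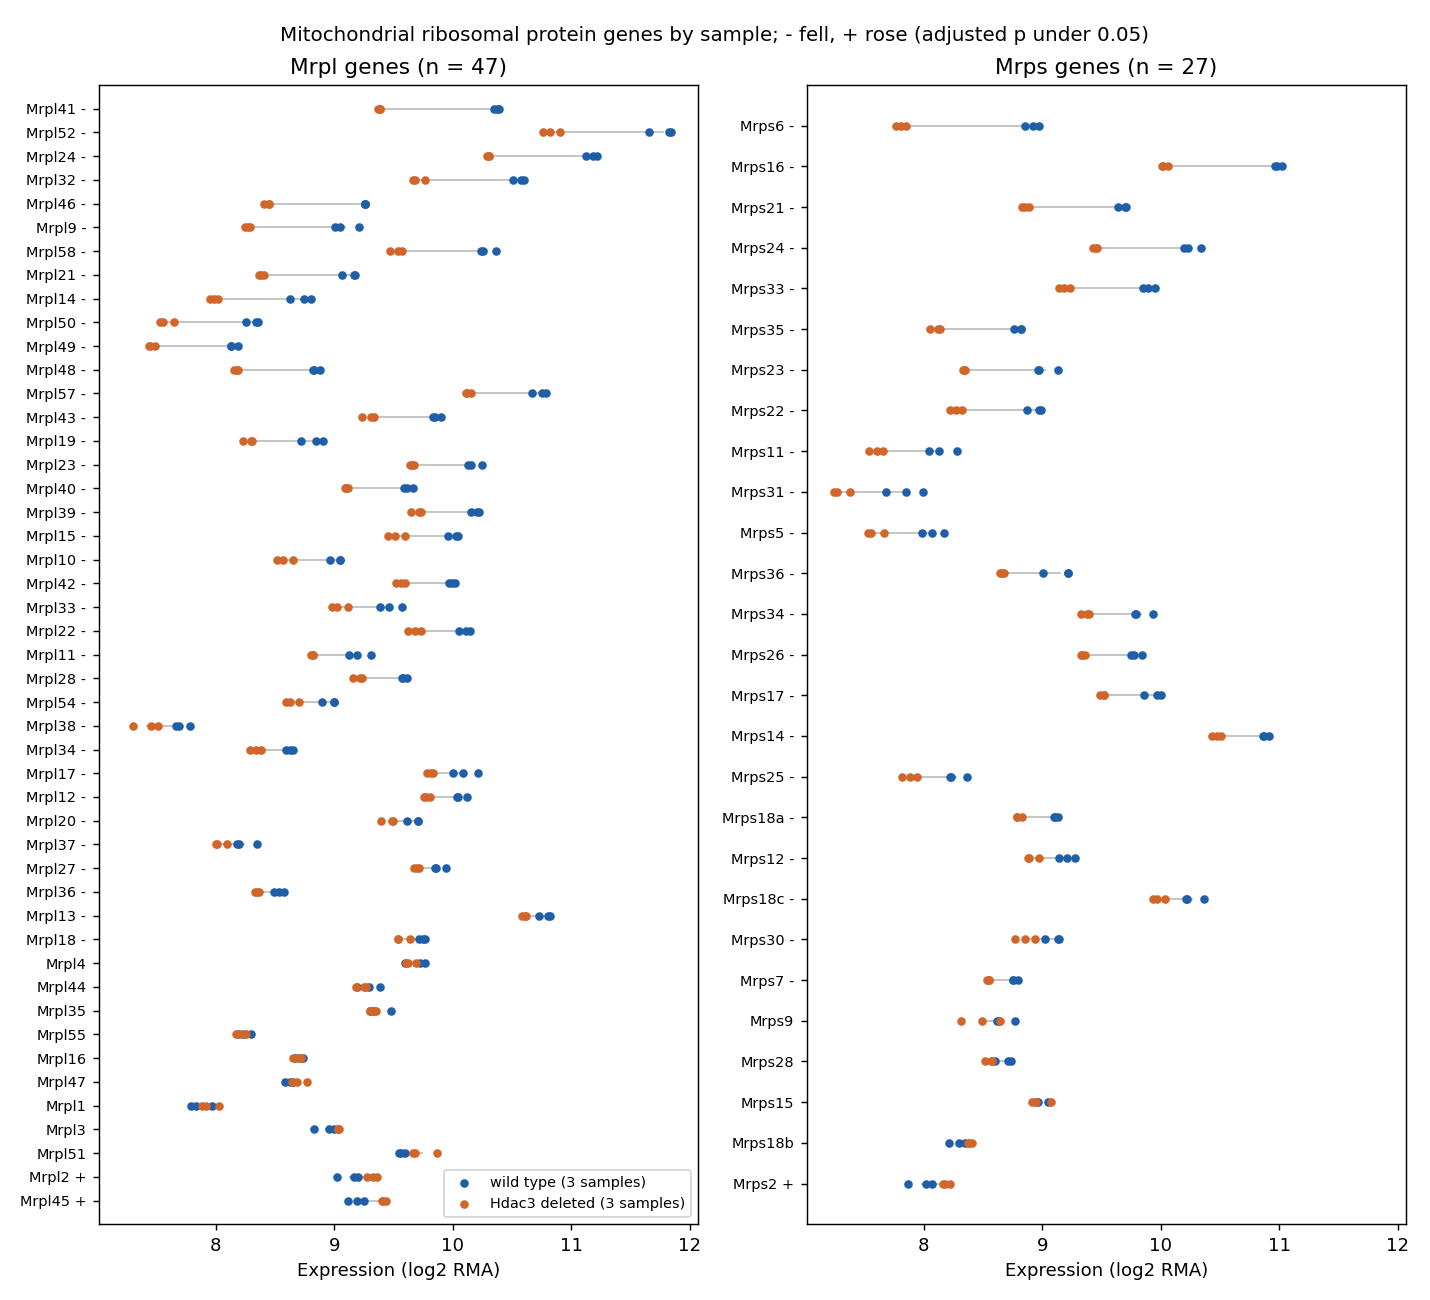
Expression (log2 RMA, x axis) of each of the 47 Mrpl and 27 Mrps genes (rows, ordered by difference) in the 3 wild type (blue) and 3 Hdac3 deleted (orange) samples, with a grey line joining group means and a minus or plus sign for genes that fell or rose. In most rows the orange points lie to the left of the blue ones without overlap, and 6 genes towards the foot of the panels show the opposite order, 3 of which rose.

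**Figure D2:**
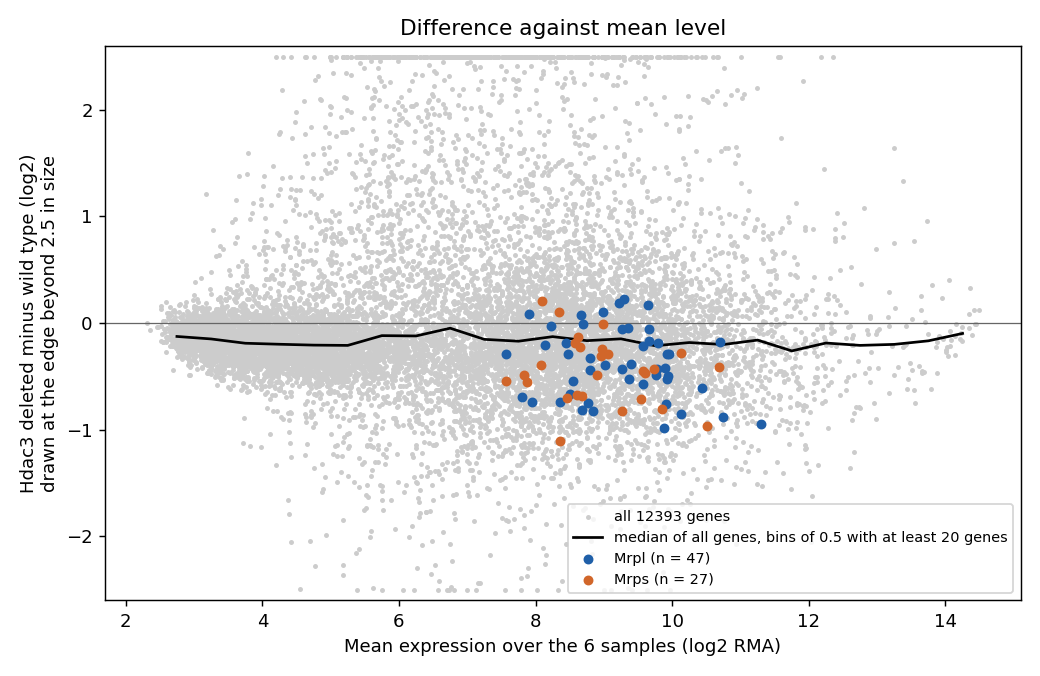
Difference between Hdac3 deleted and wild type samples (log2, y axis) against mean expression over the 6 samples (log2 RMA, x axis) for all 12393 genes (grey), Mrpl genes (blue) and Mrps genes (orange), with the running median of all genes as a black line and larger differences drawn at the edge. Most of the 74 genes lie below the running median, and none approaches the largest differences of the array.

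The size of the shift depends on how the arrays are put on a common scale. After cyclic loess between samples, which brings the median of all genes from -0.17 to 0.00, 42 of the 74 genes fell (56.8%) and 10 rose (13.5%), against 23.5% and 30% of all genes. After centring each sample on its median, which takes the median of all genes to -0.33, 66 fell and 0 rose, against 58.3% and 17.8% of all genes. Relative to the median of all genes, the median of the 74 genes was -0.26 on the deposited scale, -0.26 after median centring, -0.22 after cyclic loess and -0.29 after quantile normalisation was applied again. The 42 genes that fell after cyclic loess, 25 Mrpl and 17 Mrps, fell under all 4 scalings, and 0 genes rose under all 4.

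**Figure D3:**
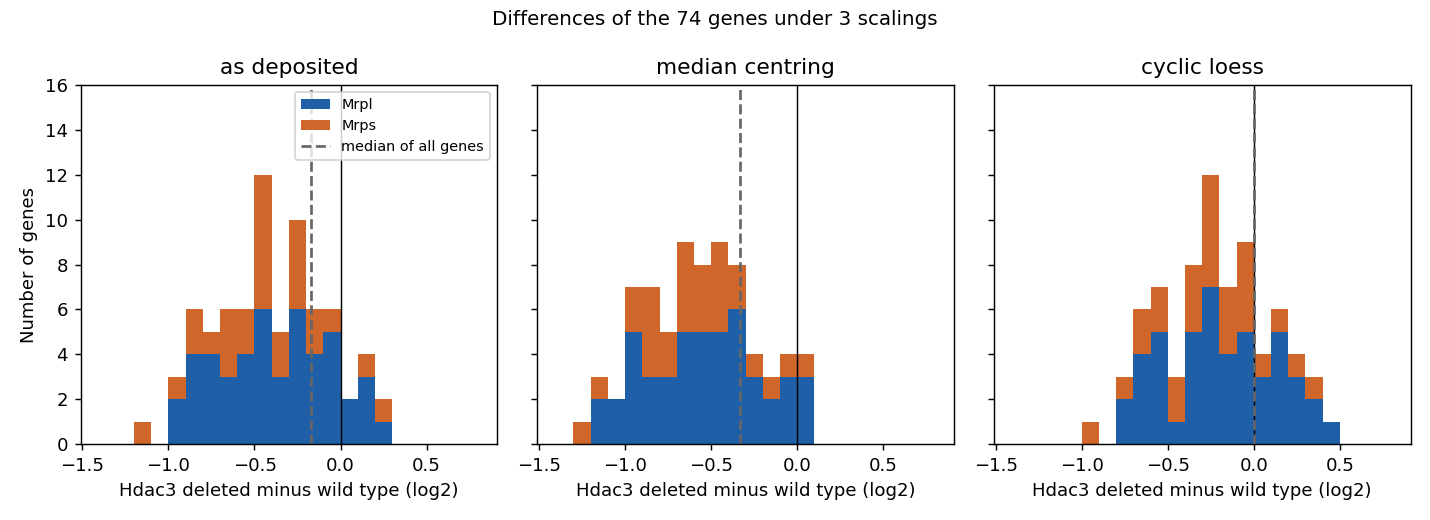
Histograms of the difference between Hdac3 deleted and wild type samples (log2, x axis) for Mrpl (blue) and Mrps (orange) genes as deposited, after median centring and after cyclic loess, with the y axis giving the number of genes and a dashed line at the median of all genes. The bulk of the 74 genes lies to the left of the dashed line in each panel, while its place relative to 0 moves with the scaling.

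Genes of both name groups, Mrpl and Mrps, were lower. The names do not follow the subunits throughout, as Mrps18a and Mrps30 encode large subunit proteins and Mrps36 is not a ribosomal protein. The median of the 47 Mrpl genes was -0.39, with 36 falling (76.6%) and 2 rising, and 22 of 27 Mrps genes fell (81.5%) and 1 rose, the median being -0.45. The Mrpl mean was 9.43, 9.44 and 9.43 on the wild type arrays against 9.05, 9.06 and 9.05 after Hdac3 deletion. The Mrps mean was 9.17, 9.15 and 9.19 with intact Hdac3 and 8.72, 8.74 and 8.70 with Hdac3 deleted. The difference between Mrpl and Mrps genes was not tested. Of all genes, 38.8% fell and 22.4% rose. Under cyclic loess 25 Mrpl genes (53.2%) and 17 Mrps genes (63%) fell, beside 23.5% of all genes.

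In the small subunit, the largest fall was in Mrps6, the counterpart of bacterial S6 at the platform of the subunit. Mrps6 measured 8.97, 8.86 and 8.92 across the wild type arrays and 7.85, 7.77 and 7.81 across the Hdac3 deleted ones. The lowest wild type value thus stood about 1 log2 unit above the highest Hdac3 deleted value, and the fitted difference was -1.11 (SE 0.057, limma adjusted p = 4.26e-06), or 2.16-fold lower. Its promoter is the one with several GC boxes shown above. Mrps16, the counterpart of bacterial S16 and a gene mutated in an inherited human deficiency of mitochondrial translation, measured 10.96, 10.99 and 11.02 on the wild type arrays against 10.06, 10.01 and 10.02 after Hdac3 deletion. Each group was tight and far from the other, with a difference of -0.96 (SE 0.051, limma adjusted p = 4.81e-06). Mrps21, the counterpart of bacterial S21, measured 9.70, 9.71 and 9.64 against 8.89, 8.85 and 8.83. Mrps24, the counterpart of bacterial S3 near the mRNA entry, measured 10.34, 10.19 and 10.23 against 9.45, 9.43 and 9.46. Their differences were -0.82 and -0.81, and neither gene's groups overlapped. Mrps12, which sits at the decoding centre, fell less, by 0.29, and its adjusted p was 0.201 with cyclic loess.

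Among small subunit proteins without a bacterial counterpart, Mrps33, Mrps35, Mrps23 and Mrps22 fell by 0.71, 0.70, 0.68 and 0.67. Mrps22, mutated in an inherited human disorder, measured 8.98, 8.87 and 8.99 with intact Hdac3 and 8.27, 8.33 and 8.22 with Hdac3 deleted (limma adjusted p = 7.17e-05). Mrps31 measured 7.99, 7.68 and 7.85 against 7.24, 7.38 and 7.27, and did not overlap between groups. Counting by structure and leaving out Mrps36, 8 of the 9 measured genes of this kind fell and 0 rose, with a median of -0.54, and 11 of the 15 small subunit genes with a bacterial counterpart fell and 1 rose, the median being -0.41. The exception among the 9 was Mrps18b, although its paralog Mrps18c was counted with a bacterial counterpart. Mrps36 itself fell by 0.49.

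Mrps18 occurs as 3 paralogs that take different places in the ribosome: Mrps18b and Mrps18c belong to the small subunit and Mrps18a to the large one. In the counts by structure, Mrps18c stands with the genes that have a bacterial counterpart. Mrps18a and Mrps18b stand with the others, although they are its paralogs. Mrps18a measured 9.10, 9.10 and 9.13 across the wild type arrays and 8.79, 8.78 and 8.83 across the Hdac3 deleted ones, a difference of -0.31 (SE 0.050, limma adjusted p = 0.00132). Mrps18c measured 10.22, 10.36 and 10.21 against 9.94, 10.04 and 9.97, a difference of -0.28 (SE 0.065, limma adjusted p = 0.00763). Mrps18b measured 8.35, 8.21 and 8.30 against 8.38, 8.41 and 8.38, a difference of 0.10 (SE 0.058, limma adjusted p = 0.162). So 2 paralogs fell on the deposited scale and the third did not pass the test. With cyclic loess the pattern moved upward: Mrps18a and Mrps18c gave -0.12 and -0.08 with adjusted p of 0.0837 and 0.344, and Mrps18b rose by 0.28 (limma adjusted p = 0.00572).

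In the large subunit, Mrpl41 came just short of 2-fold, at 1.98-fold lower. Its protein has no bacterial counterpart and is also known to bind the survival factor BCL2. Mrpl41 measured 10.37, 10.39 and 10.35 on the wild type arrays against 9.39, 9.37 and 9.39 after Hdac3 deletion (difference -0.99, SE 0.049, limma adjusted p = 3.52e-06). Mrpl52, whose promoter holds the ETS-type core, had the largest SE of the 10 largest falls, with 11.84, 11.82 and 11.65 against 10.82, 10.76 and 10.91, and its difference was -0.94 (SE 0.073). Mrpl24, the counterpart of bacterial L24, measured 11.13, 11.22 and 11.18 against 10.29, 10.30 and 10.30, a difference of -0.88. Mrpl32 is matured by the mitochondrial AAA protease Afg3l2. It measured 10.60, 10.57 and 10.50 with intact Hdac3 and 9.67, 9.77 and 9.68 with Hdac3 deleted, a difference of -0.85, while Afg3l2 rose by 0.48 (limma adjusted p = 0.00327). Mrpl9, the counterpart of bacterial L9, measured 9.01, 9.05 and 9.20 against 8.28, 8.29 and 8.25, a difference of -0.82. Mrpl58, a peptidyl-tRNA hydrolase built into the ribosome, measured 10.37, 10.25 and 10.24 against 9.47, 9.57 and 9.54, a difference of -0.76. None of these 6 genes had overlapping groups, and all 6 fell under each of the 4 scalings.

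Smaller falls were seen in Mrpl12, the stalk protein that also binds mitochondrial RNA polymerase, at -0.29, and in Mrpl11 at the stalk base, at -0.39. The call was lost with cyclic loess for Mrpl12 (adjusted p = 0.279). By structure, 17 of 20 large subunit genes without a bacterial counterpart fell and 1 rose, with a median of -0.51, and 21 of 29 with one fell and 1 rose, with a median of -0.29. With cyclic loess the counts were 12 of 20 and 13 of 29, and the medians -0.31 and -0.08. The difference between these classes was not tested.

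The 3 rises were small. Mrpl45, which anchors the ribosome to the inner membrane near the tunnel exit, measured 9.11, 9.25 and 9.19 across the wild type arrays and 9.41, 9.43 and 9.41 across the Hdac3 deleted ones, a difference of 0.23 (SE 0.057, limma adjusted p = 0.0107). Mrps2, the counterpart of bacterial S2, measured 7.86, 8.02 and 8.07 against 8.16, 8.22 and 8.18, a difference of 0.21 (SE 0.068, adjusted p = 0.0343). Mrpl2, the counterpart of bacterial L2 beside the peptidyl transferase centre, measured 9.02, 9.20 and 9.16 against 9.28, 9.36 and 9.32, a difference of 0.19 (SE 0.066, adjusted p = 0.0417). A second, dimmer probe set of Mrps2, also above background, gave -0.25 and was not called, and the mean of both sets gave -0.022, so its direction rests on the probe set used. On the brightest probe sets all Hdac3 deleted values lay above all wild type values in each of the 3. None of the 3 was called after median centring, where the differences were 0.07, 0.05 and 0.03. All 3 rose with cyclic loess, by 0.42, 0.38 and 0.38, and when quantile normalisation was applied again. With p-values adjusted over all probe sets, Mrpl2 was not called (limma adjusted p = 0.0517). Mrpl45 kept its call with any 1 sample left out. Mrpl2 kept it only without wild type replicate 2, and Mrps2 only without wild type replicate 3.

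Nearest the threshold on the inside were Mrpl37 among the falls (-0.21, limma adjusted p = 0.0321) and Mrpl2 among the rises. Mrpl37 measured 8.35, 8.20 and 8.18 against 8.09, 8.001 and 8.01. On the outside were Mrps28 (-0.13, adjusted p = 0.0870), with 8.73, 8.71 and 8.61 against 8.52, 8.57 and 8.57, and Mrpl51 (0.17, adjusted p = 0.0709), with 9.56, 9.55 and 9.60 against 9.68, 9.86 and 9.67. The groups did not overlap in any of these 3 genes. Mrpl37 is 1 of the genes that no longer passed after cyclic loess. All 13 genes that were not called differed by less than 0.2, 8 of them downward and 5 upward, and most of these signs turned under another scaling. They include Mrpl3, Mrpl4 and Mrpl16, counterparts of bacterial proteins, and Mrpl44, an RNase III relative near the tunnel exit, at 0.11, -0.06, -0.01 and -0.06.

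The 74 genes had 127 probe sets in all, and 33 of the genes had more than 1. Of the 127 probe sets 87 fell and 5 rose when p-values were adjusted over 22626 probe sets, of which 37.4% fell and 20.1% rose. For 25 of the 33 genes the brightest probe set fell. Another probe set with a mean above background in at least 1 group was present for 22 of the 25. For 19 of these at least 1 such set fell too. For Mrpl50, Mrpl57 and Mrps11 the only such set lay partly inside the background range. For Mrpl41 the second probe set gave -0.91 beside -0.99, and for Mrpl52 2 further sets gave -0.96 and -0.90 beside -0.94.

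Probe sets of 2 genes were called in both directions. For Mrpl15, the probe set used measured 9.96, 10.05 and 10.02 against 9.59, 9.51 and 9.46. It fell by 0.49 and 4 others by 0.68 to 0.93, while a dim one measured 5.27, 5.23 and 5.51 on the wild type arrays against 5.75, 5.82 and 5.73 after Hdac3 deletion, a rise of 0.43 (limma adjusted p = 0.00470). For Mrps9, the brightest set was not called, at 8.62, 8.63 and 8.77 against 8.49, 8.65 and 8.32, and the groups overlapped. Another of its sets fell by 0.29 (adjusted p = 0.00768), and a further one rose from 6.57, 6.52 and 6.54 to 7.01, 7.22 and 7.11, by 0.57 (adjusted p = 0.000375). The direction for Mrps9 is thus not settled by this array. For Mrpl35, Mrpl44 and Mrpl51 the brightest set was not called but a dimmer one fell, by 0.47, 0.37 and 0.69. For Mrpl35 and Mrpl51 this dimmer set lay partly inside the background range. The opposite was seen for Mrpl1, whose brightest set was not called. A dimmer set of Mrpl1, above background in all samples, rose by 0.28 (limma adjusted p = 0.0203). Probe sets can read different transcript ends or isoforms, which was not tested.

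**Figure D4:**
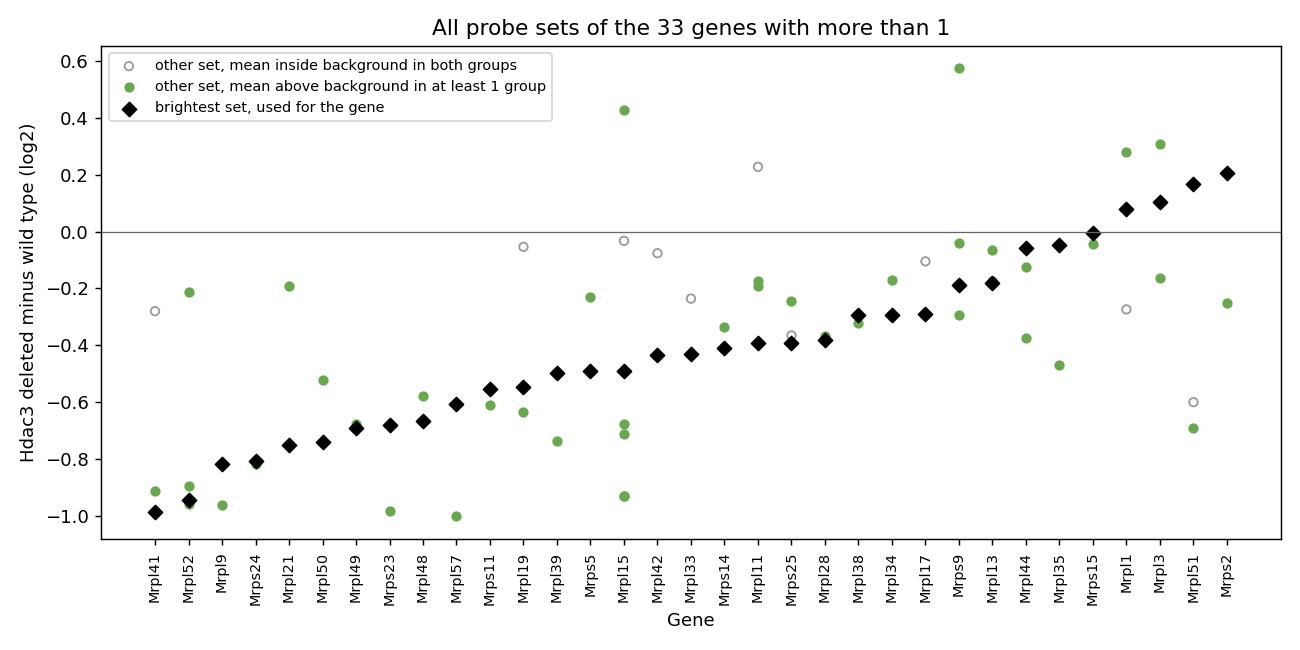
Difference between Hdac3 deleted and wild type samples (log2, y axis) for every probe set of the 33 genes with more than 1 (x axis), with the brightest set of each gene as a black diamond, other sets with a mean above background in at least 1 group in green and those inside background in both groups as open circles. For most genes the green points lie on the same side of 0 as the diamond, and a few genes, Mrpl15 and Mrps9 among them, show green points on both sides.

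Other components of the mitochondrial ribosome with names of their own fell without exception among those measured. There were 4: Chchd1 (-0.83), Dap3, a GTP-binding small subunit protein first described in cell death (-0.76), Gadd45gip1, a protein at the tunnel exit (-0.66), and Ptcd3, an RNA-binding small subunit protein (-0.53). Dap3 measured 10.28, 10.44 and 10.33 with intact Hdac3 and 9.50, 9.62 and 9.65 with Hdac3 deleted (limma adjusted p = 7.38e-05). Of all genes, 38.8% fell on the deposited scale. All 4 also fell with cyclic loess, where 23.5% of all genes fell.

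Genes that build the ribosome were mostly lower as well on the deposited scale. The median of 18 assembly genes was -0.42. Of these genes 14 fell (77.8%) and 1 rose (5.56%), beside 38.8% and 22.4% of all genes. Mtg2, a GTPase of large subunit assembly, fell by 0.97, Tfb1m, which methylates the small subunit RNA, by 0.80, and Noa1, a GTPase of small subunit assembly, by 0.59. The one rise was in C1qbp, a matrix protein that takes part in ribosome biogenesis, by 0.55 (limma adjusted p = 0.000208). With cyclic loess 9 of the 18 fell (50%) and 2 rose (11.1%), where 23.5% of all genes fell and 30% rose.

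Factors that run translation changed less evenly. Of 10 translation factors 6 fell (60%) and 1 rose (10%), with a median of -0.29, beside 38.8% and 22.4% of all genes. Pdf, the deformylase that removes the formyl group from new chains, fell by 0.90, and Mrrf, the recycling factor, by 0.79. The elongation factor Tufm fell by 0.29 and the elongation factor Gfm1 rose by 0.38. With cyclic loess 2 of the 10 fell and 2 rose (20% each), beside 23.5% and 30% of all genes. Tufm was then not called (-0.11, limma adjusted p = 0.111). Of 11 aminoacyl-tRNA synthetases and amidotransferase subunits 4 fell and 1 rose, with a median of -0.12, a share of 36.4% that is near the 38.8% of all genes. With cyclic loess 3 of these fell and 3 rose, and the median was 0.06.

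Several genes acting on mitochondrial RNA and DNA fell by about 1 log2 unit or more. Hsd17b10 and Trmt10c encode subunits of the mitochondrial RNase P, which cuts tRNAs out of the long mitochondrial transcripts. Hsd17b10 measured 9.80, 9.78 and 9.81 across the wild type arrays and 8.33, 8.29 and 8.24 across the Hdac3 deleted ones, a difference of -1.52 (limma adjusted p = 6.12e-07). Trmt10c measured 8.85, 8.88 and 8.85 against 7.64, 7.84 and 7.74, a difference of -1.12 (limma adjusted p = 7.80e-06). Cdk5rap1, which modifies mitochondrial tRNAs, measured 8.15, 8.16 and 8.32 against 6.81, 6.73 and 6.67, a difference of -1.47 (limma adjusted p = 3.16e-06). In all, 9 of 16 RNA processing genes fell (56.2%) and 2 rose (12.5%), beside 38.8% and 22.4% of all genes. Of 10 genes for transcription and replication of mitochondrial DNA 7 fell (70%) and 1 rose (10%). Polg, the catalytic subunit of the mitochondrial DNA polymerase, fell by 0.93, from 9.20, 9.27 and 9.20 to 8.23, 8.28 and 8.35. Tfam, which packages mitochondrial DNA and starts its transcription, fell by 0.92, from 9.67, 9.70 and 9.81 to 8.77, 8.88 and 8.76. Mgme1, a nuclease of mitochondrial DNA maintenance, rose by 0.48. With cyclic loess 7 of the RNA processing genes fell and 4 rose, and 5 of the DNA genes fell and 2 rose, the genes named here keeping their calls. Of all genes, 23.5% then fell and 30% rose.

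The median of 11 mitochondrial protease and chaperone genes was -0.08. Of these 3 fell (27.3%) and 4 rose (36.4%), beside 38.8% and 22.4% of all genes. This list depended on the scaling: 2 fell and 5 rose with cyclic loess (median 0.11), and 7 fell and 2 rose after median centring (median -0.24). Of all genes, 23.5% fell and 30% rose with cyclic loess, and 58.3% fell and 17.8% rose after median centring. Hspe1, the cochaperonin, fell by 1.14, while the protease gene Lonp1 rose by 0.37. For comparison, and chosen after the values were seen, 30 of 44 cytosolic ribosomal protein genes fell (68.2%) with a median of -0.24, and 46 of 79 subunits of oxidative phosphorylation fell (58.2%) with a median of -0.22. With cyclic loess the medians of these 2 sets were -0.02 and 0.00, beside -0.22 for the mitochondrial ribosomal proteins. The differences between these sets were not tested.

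**Figure D5:**
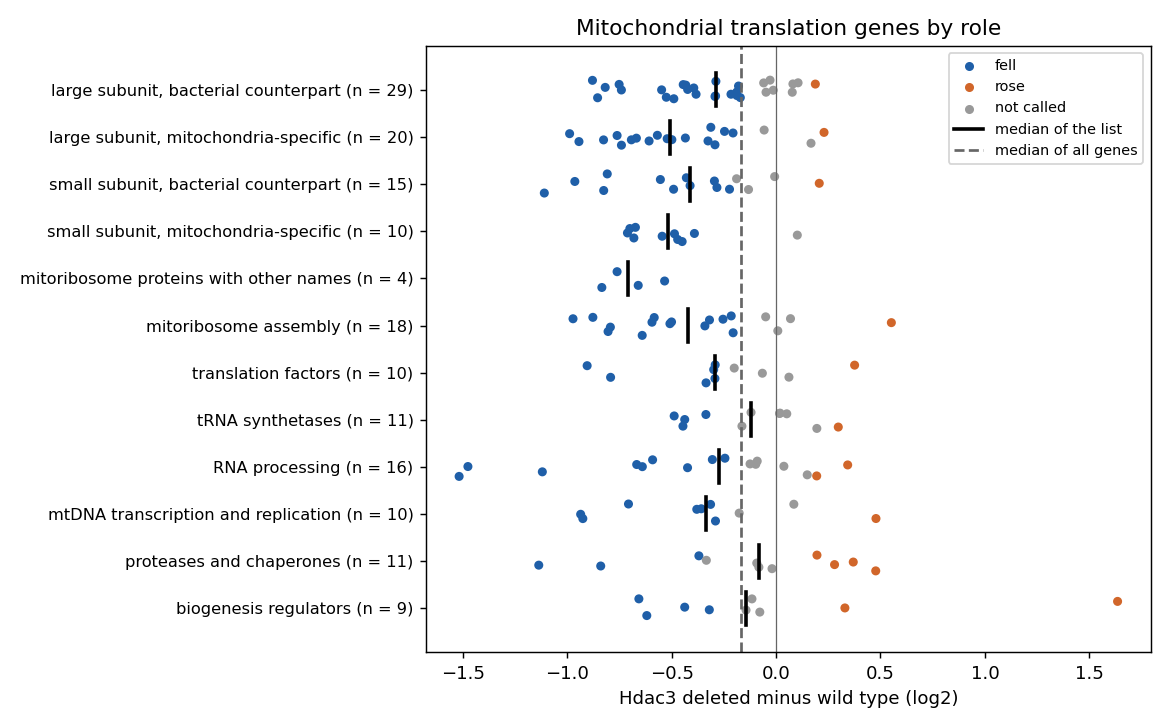
Difference between Hdac3 deleted and wild type samples (log2, x axis) for each measured gene of the lists of mitochondrial translation and its surroundings (rows), coloured by whether the gene fell, rose or was not called, with a black bar at each list's median and a dashed line at the median of all genes. The row of small subunit proteins without a bacterial counterpart includes Mrps36. The ribosomal and assembly rows lie mostly left of the dashed line, whereas the rows of tRNA synthetases, proteases and chaperones, and biogenesis regulators straddle it.

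Among regulators known to drive nuclear genes of mitochondrial function, 4 of 9 fell (44.4%) and 2 rose (22.2%). These shares are near the 38.8% and 22.4% of all genes. The 4 falls include Ppargc1a, which lay inside background in both groups. With cyclic loess 3 fell and 2 rose, where 23.5% of all genes fell and 30% rose. After median centring 7 fell and 1 rose, where 58.3% of all genes fell and 17.8% rose. Gabpa and Gabpb1 encode the subunits of GABP, an ETS factor that binds the promoters of many such genes. Gabpa measured 9.03, 9.06 and 9.31 on the wild type arrays against 8.44, 8.64 and 8.35 after Hdac3 deletion, a difference of -0.66 (limma adjusted p = 0.00131), and Gabpb1 measured 8.35, 8.50 and 8.49 against 7.83, 7.84 and 7.81, a difference of -0.62 (limma adjusted p = 0.000105). Both fell under each of the 4 scalings, as did Yy1, at -0.44. Nrf1, which binds the NRF1-type core, was not called at -0.08 (adjusted p = 0.338). The coactivator Ppargc1b rose by 1.64, from 7.22, 6.96 and 7.22 to 8.79, 8.82 and 8.69.

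The promoters of the 65 genes held these cores to differing degrees. The ETS-type core CCGGAAG was found in 22 of them (33.8%), beside 15.0% of 9887 promoters of genes on the array and 9.11% of all 27025 promoters in the table. The NRF1-type core CGCATGCG was in 7 (10.8%), beside 3.18% and 1.91%, and the YY1-type core AAGATGGCG in 7 (10.8%), beside 2.57% and 1.48%. GC boxes (GGGCGG) were in 34 (52.3%), beside 57.4% and 35.9%. The CRE TGACGTCA was in 2 (3.08%), beside 2.74% and 1.86%, and the E-box CACGTG in 5 (7.69%), beside 9.34% and 7.23%. The ETS-type core was in 19 of the 51 promoters of genes that fell (37.3%) and in 3 of the 14 others (21.4%), and the median difference was -0.43 with the core and -0.43 without it. Only the exact letters given were searched, so sites spelled otherwise are missing from these counts. These matches describe the sequence and say nothing of binding in these cells.

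Some of these genes lie close to the start of a neighbour read in the opposite direction. Such a start lay within 1000 bases for 24 of the 65 genes with a promoter on hand, and 17 of those neighbours were measured. The other 9 genes were not searched. The pair Mrpl46 and Mrps11, with the 41 bases shown above between them, counts from both sides. Mrpl46 measured 9.26, 9.26 and 9.26 with intact Hdac3 and 8.41, 8.45 and 8.45 with Hdac3 deleted, a difference of -0.83. Mrps11 measured 8.05, 8.13 and 8.28 against 7.60, 7.53 and 7.66, a difference of -0.55, so both members fell. Over the 17 pairs 14 of the members fell, whereas 8 of the neighbours fell, 3 rose and 6 were not called. Those 8 include Mrpl46 and Mrps11, each counted as the neighbour of the other. The median difference of the neighbours was -0.14, beside -0.17 for the whole array. Array-wide, the share called lower was 38.8% and the share called higher 22.4%. Some neighbours were not above background: Eme1, which rose, Zfp189, which fell, and Cyb5rl and Helq, which were not called. Psma2, a proteasome subunit gene beside Mrpl32, fell by 0.20 and Fau, a ribosomal protein gene beside Mrpl49, by 0.23, while their partners fell by 0.85 and 0.69. With cyclic loess the differences of Psma2 and Fau were 0.02 and 0.01 and neither was called. Sars2, the mitochondrial seryl-tRNA synthetase beside Mrps12, was not called at 0.20 (limma adjusted p = 0.0838). Pnpla7, a lysophospholipase gene whose start lies 935 bases from that of Mrpl41, rose by 1.26 as Mrpl41 fell.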

How the data were processed

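The authors deposited log2 values per probe set, normalised by robust multiarray average (RMA) in MAYDAY 2.12 and tested with Student's t test, per the labels. RMA scales arrays to each other, so total RNA per cell is not visible, and probe set medians still differed, at 6.28 to 6.29 (wild type) against 6.43 to 6.47 (Hdac3 deleted). Of 22690 probe sets, 64 controls were left out; 20380 of the other 22626 had 1 symbol in the platform annotation, 691 several and 1555 none, and 20351 matched the RefSeq gene table (GRCm38.p6). Genes (12393) were fitted two-sided with limma 3.58.1 (lmFit, eBayes) in R 4.3.3, a fit checked on simulated data, and counted at an adjusted p of 0.05. In the simulation 16% of changes of 0.25 log2 units were recovered, 58% of 0.5 and 94% of 1. It changed 200 genes, far fewer than were called in these data, so these shares need not hold here. Annotation, promoter searches and plots used Python 3.11.15, pandas 2.3.3 and matplotlib 3.10.9. The number of arrays limits the precision. Members and lists were chosen with earlier results of these data known. Sample values were given for the 3 rises, the 10 largest falls, members past 2-fold, near a threshold or with probe sets in disagreement, and Mrps18 paralogs, and for some of the up to 4 genes of smallest p in each other list; others named were chosen after their values were seen. Alternatives were the methods' t-test, a replicate block, 3 other scalings, each sample left out, a 1.5-fold threshold, array weights, a trended and robust prior, dim probe sets left out, and other choices of probe set.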

Additional observations from a re-analysis of the deposited data

How the results depend on the processing

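The count of 58 falling genes stayed between 54 and 60 in every alternative except median centring (66) and cyclic loess (42), with 54 to 56 when 1 sample was left out. Rises were less stable: instead of 3 genes (2 Mrpl, 1 Mrps), the methods' t-test and the replicate block each gave 1 (1 Mrpl, 0 Mrps), median centring 0 (0 and 0) and cyclic loess 10 (7 and 3). Array weights left 1 Mrpl gene, probe set means 0 Mrps genes, and leaving out 1 sample 1 to 2 genes (1 to 2 Mrpl, 0 to 1 Mrps). At least 2-fold lower were 6 genes with median centring, 0 with cyclic loess, 21 at a 1.5-fold threshold and 1 to 2 with 1 sample left out. The median difference was -0.59 with median centring, -0.22 with cyclic loess and -0.37 when all probe sets of a gene were averaged; for Mrpl genes these were -0.55, -0.20 and -0.33, and for Mrps genes -0.61 and -0.25, with -0.46 to -0.42 over samples left out. The sign turned for 10 genes with cyclic loess and for 4 with median centring (Mrpl1, Mrpl3, Mrpl47 and Mrps18b, none called on either scale). With cyclic loess these were Mrpl4, Mrpl35, Mrpl44, Mrpl55 and Mrps28, not called on either scale, and Mrpl13 (0.032), Mrpl16 (0.17, limma adjusted p = 0.0238), Mrpl18 (0.029), Mrpl27 (0.015) and Mrps15 (0.18, adjusted p = 0.0331), and the mean of probe sets turned it for Mrpl51 (-0.37, adjusted p = 0.0005035) and Mrps2 (-0.022). The cause was not tested. Same-numbered samples did not deviate together (correlations 0.089, 0.065 and -0.201), so the numbers were not taken as pairs; the replicate block gave 56 falls.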
